A study of Homo sapiens with 18 samples.

Results

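The anti-apoptotic branch of the BCL2 family was followed in SJSA cells, an osteosarcoma line. Its 5 members were taken by symbol, as the rows BCL2, BCL2L1, BCL2L2, MCL1 and BCL2A1 of the 23368 gene rows in the count tables, and all 5 were found. The cells are p53-competent and carry extra copies of MDM2 and CDK4. RNA was sequenced from 6 groups of 3 replicates on a common schedule of 30 h. DMSO was the solvent control. The group Nutlin received this MDM2 antagonist, which frees p53, at 20 µM for the last 6 h. PD24 received PD0332991 (Palbociclib), an inhibitor of CDK4 and CDK6, at 10 µM for the first 24 h, after which it was removed, and PD30 received it for the whole 30 h. N+PD24 and N+PD30 combined Nutlin with either schedule. Every group came from this 1 line, and the labels give only replicate numbers, so p-values measure the spread between these samples.

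Proteins of the BCL2 family decide whether the outer mitochondrial membrane is opened. BAX and BAK1 form the pore, BH3-only proteins such as BBC3 (PUMA) and PMAIP1 (NOXA) promote it, and the anti-apoptotic members hold both in check by binding them in a groove. PMAIP1 binds MCL1 with some preference, BAD binds BCL2, BCL2L1 and BCL2L2, and BBC3 binds all of them. MCL1 is a protein of rapid turnover, so its amount can change without its RNA. The counts are per gene, and therefore add up the long, protective and the short, death-promoting splice forms of BCL2L1 and MCL1.

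On GRCh37, the build named hg19 in the sources, MCL1 lies at chr1:150533371-150552214 on the minus strand, BCL2L2 at chr14:23767999-23780960 on the plus strand, BCL2A1 at chr15:80253234-80263538, BCL2 at chr18:60790579-60987361 and BCL2L1 at chr20:30252255-30311792, the last 3 on the minus strand. BCL2L2 shares exons with the readthrough gene BCL2L2-PABPN1 on the same strand. That row stood at 0 reads in all 18 libraries, and a count that drops reads shared by 2 genes would leave BCL2L2 too low, so its level is uncertain. An exon of BCL2L1 overlaps the antisense RNA ABALON, which has no row in the tables. HTSeq was run in union mode and told to expect reverse-stranded reads, but whether the kit keeps the strand is not given in the sources used here.

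Promoter sequences were taken from RefSeq (GRCh38.p14, 250 bases before to 50 after the annotated start), which held an entry for 3 of the 5 members. They are shown because the expressed BCL2 and BCL2L1 responded to Nutlin in opposite directions, while BCL2A1 was close to silent. All lie on the minus strand and are written 5′ to 3′, with each CpG in capitals.
BCL2, chr18:63319720-63320019: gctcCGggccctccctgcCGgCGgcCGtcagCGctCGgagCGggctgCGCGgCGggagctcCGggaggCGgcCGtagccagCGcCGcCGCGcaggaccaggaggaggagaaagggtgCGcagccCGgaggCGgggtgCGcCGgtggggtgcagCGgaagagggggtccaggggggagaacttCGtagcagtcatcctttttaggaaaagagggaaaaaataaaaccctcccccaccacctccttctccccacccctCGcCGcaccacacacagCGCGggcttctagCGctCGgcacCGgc
BCL2L1, upstream start, chr20:31723914-31724213: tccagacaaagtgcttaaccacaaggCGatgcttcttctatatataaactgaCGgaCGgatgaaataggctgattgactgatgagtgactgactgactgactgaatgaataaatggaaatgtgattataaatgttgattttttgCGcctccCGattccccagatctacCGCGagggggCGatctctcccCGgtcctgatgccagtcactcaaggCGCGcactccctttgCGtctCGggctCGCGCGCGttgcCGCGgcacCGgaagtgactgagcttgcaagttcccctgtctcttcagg
BCL2L1, downstream start, chr20:31722819-31723118: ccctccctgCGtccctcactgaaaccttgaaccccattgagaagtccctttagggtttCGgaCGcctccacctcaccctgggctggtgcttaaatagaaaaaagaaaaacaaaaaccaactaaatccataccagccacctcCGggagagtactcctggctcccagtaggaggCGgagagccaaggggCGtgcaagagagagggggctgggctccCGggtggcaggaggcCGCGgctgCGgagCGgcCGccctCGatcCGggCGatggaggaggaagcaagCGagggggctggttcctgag
BCL2A1, chr15:79971147-79971446: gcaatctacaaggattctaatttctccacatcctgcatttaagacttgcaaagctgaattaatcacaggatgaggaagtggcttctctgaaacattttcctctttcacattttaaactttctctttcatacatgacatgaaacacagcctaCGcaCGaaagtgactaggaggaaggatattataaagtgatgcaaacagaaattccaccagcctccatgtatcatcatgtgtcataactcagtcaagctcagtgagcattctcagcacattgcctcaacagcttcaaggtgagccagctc

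The windows differed in base composition. The BCL2 window held 31 CpG dinucleotides at 70.7% GC, a number that 20.7% of the 35116 windows reach or exceed, and the windows of BCL2L1 held 20 and 16. The BCL2A1 window held 2 at 41% GC, as few as in 18.2% of all windows, where the median is 14. The Sp1 motif GGGCGG, searched on both strands, is in 45% of all windows and was found once, 246 bases into the downstream window of BCL2L1. The ETS motif CCGGAAGT is in 4.14% and was found once, 260 bases into the upstream window of BCL2L1. The E2F motifs TTTCCCGC, TTTCGCGC, TTTGCCGC and TTTGGCGC together are in 3.31% and the p53 half-site in 6.63% of all windows, and neither was found in these 4.

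Total counts on genes ranged from 12704845 to 40231041 per library (median 29608936), the lowest being N+PD30 replicate 1. The libraries carried osteoblast markers in part. COL1A1 and SPARC were abundant, and RUNX2 was at 19.7 to 30.2 CPM (counts divided by the library's total and multiplied by 1000000) in the group means. The osteoblast genes SP7, BGLAP and IBSP were near 0. Of 5 markers of other cell types, CD3E had a read in 2 and KRT5 in 7 of 18 libraries and PTPRC reached at most 0.492 CPM, while EPCAM and PECAM1 had reads in all 18. Their summed level was 1.24 to 1.75 CPM in DMSO, 2.21 to 3.43 in Nutlin, 0.843 to 1.34 in PD24, 1.31 to 1.69 in PD30, 2.17 to 2.98 in N+PD24 and 1.24 to 1.81 in N+PD30. PECAM1, an endothelial gene, rose from a mean of 0.735 to 1.84 CPM with Nutlin (log2 fold change 1.46, adjusted p = 0.00286) and in N+PD24 against PD24 (1.39, adjusted p = 0.00213), and the part of these markers in the results was not tested. As a check of the drugs, CDKN1A rose 4.56 log2 units with Nutlin against DMSO and 4.34 with N+PD30 against PD30, and MKI67 fell by 7.06 log2 units in PD30. MDM2 alone took 22914 CPM in the Nutlin group against 2589 in DMSO, and 7293 in N+PD30 against 1330 in PD30. N+PD30 had less of both CDKN1A and MDM2 than Nutlin alone. The log2 fold changes were -0.78 (adjusted p = 0.000998) and -1.70 (adjusted p = 2.53e-05, both edgeR). The Nutlin response in PD30 minus that without PD0332991 was -0.68 for MDM2 (edgeR, adjusted p = 0.0326). For CDKN1A it was -0.17 (adjusted p = 0.419).

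**Figure D1:**
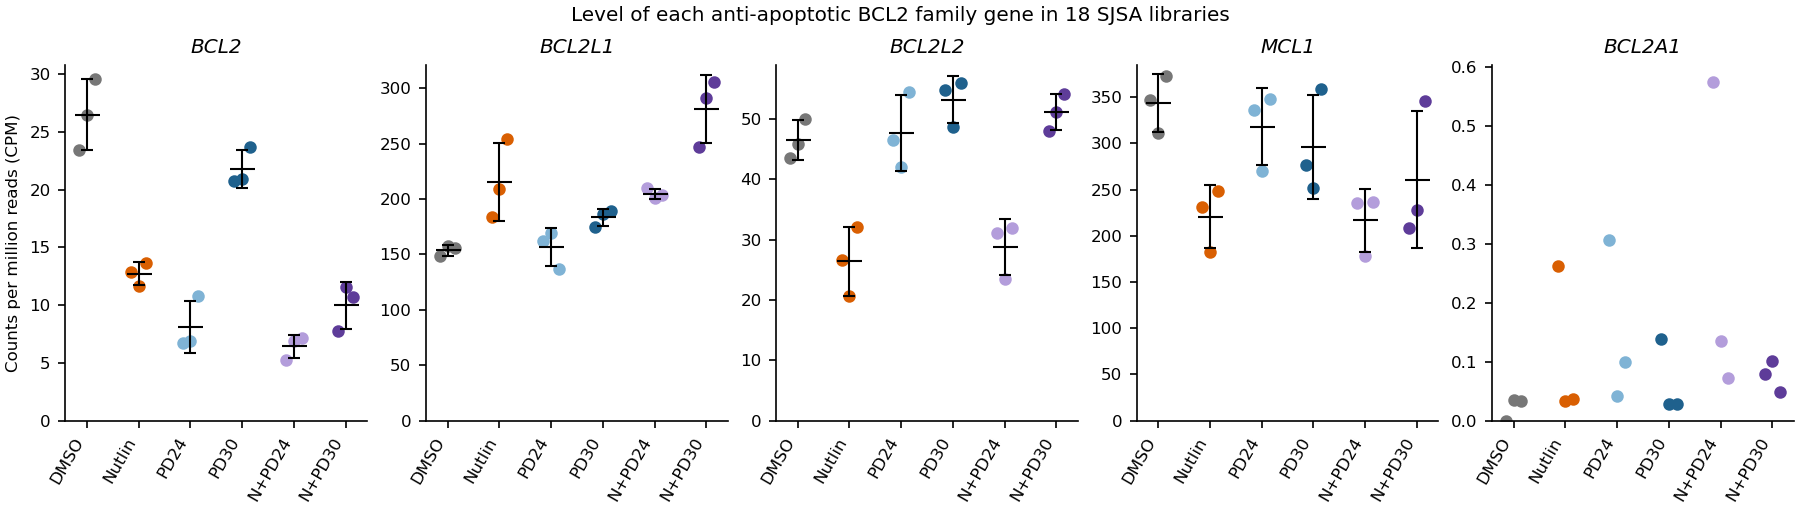
CPM of each of the 5 genes (vertical axes, each from 0 with its own scale) in the 3 libraries (points) of the 6 groups; black bars show the mean and SD, omitted for BCL2A1. BCL2 falls from 26.5 CPM in DMSO to 8.1 in PD24 but stays at 21.8 in PD30, BCL2L1 is highest in N+PD30 at 281 CPM, and BCL2L2 is low in Nutlin and N+PD24 only.

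The groups ranked differently for each gene. Among the 4 expressed members, leaving out BCL2A1 with its few reads, BCL2 had the widest range, its highest group mean being 4.12 times its lowest, followed by BCL2L2 with 2.01, BCL2L1 with 1.83 and MCL1 with 1.59. Between genes, levels were compared per kilobase of exon of the canonical transcript (6881 bases for BCL2, 2574 for BCL2L1, 3526 for BCL2L2, 3950 for MCL1 and 780 for BCL2A1). In DMSO, MCL1 had 87.1 ± 7.84 CPM per kb (SD, n = 3), BCL2L1 59.7 ± 1.84, BCL2L2 13.2 ± 0.938 and BCL2 3.85 ± 0.445. MCL1 thus made up 53.1% ± 2.43 of the summed level per kb of the 5 genes, and BCL2L1 36.5% ± 2.16. In Nutlin the order of these genes was the opposite, with BCL2L1 at 56.1% ± 4.57 and MCL1 at 37.5% ± 3.93. BCL2L1 stood above MCL1 per kb in 3 of 3 libraries of Nutlin, N+PD24 and N+PD30, in 1 of 3 of PD30, and in 0 of 3 of PD24 and DMSO, and these counts were the same with the lengths of all annotated exons. With the canonical lengths the BCL2L2 and BCL2 shares did not exceed 9.2% and 2.35% in any group mean. With all annotated exons BCL2L2 reached 10.6% in PD30. Since reads shared with BCL2L2-PABPN1 may have been dropped, the level per kb and the share of BCL2L2 may be too low. The shares of the other genes would then be too high.

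How the genes answered p53 release was compared first without PD0332991. Nutlin lowered BCL2, BCL2L2 and MCL1 and raised BCL2L1. All 4 tested members passed an adjusted p of 0.05 in Nutlin against DMSO, 1 higher and 3 lower, in a comparison in which 54.6% of all genes tested did so, 26.6% higher and 28.0% lower (under scaling by total counts 3151 higher and 5439 lower in place of 4198 and 4416). The median log2 fold change of the 4 was -0.60, beside 0.03 over all genes. None of the 4 overlapped between the groups, which was true of 61.8% of genes.

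BCL2, the founding member of the family, had 23.4, 26.5 and 29.5 CPM in the DMSO libraries and 12.9, 11.6 and 13.6 in the Nutlin libraries. Every Nutlin library lay below every DMSO library. The log2 fold change was -0.93 ± 0.12 (SE; 1.91-fold lower; adjusted p = 0.000172). BCL2L2, which encodes BCL-w, had 43.5, 45.9 and 50.1 CPM in DMSO and 26.6, 20.6 and 32.1 in Nutlin, again without overlap. It fell by 0.69 ± 0.14 on the log2 scale (adjusted p = 0.00219).

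MCL1 had 347, 311 and 373 CPM in DMSO and 231, 183 and 248 in Nutlin, so that the highest Nutlin library remained under the lowest DMSO library. Its log2 fold change was -0.52 ± 0.11 (adjusted p = 0.00364). BCL2L1, which encodes BCL-XL, moved the other way. It had 148, 157 and 155 CPM in DMSO and 184, 209 and 254 in Nutlin, with all Nutlin libraries above DMSO but spread more widely among themselves. Its log2 fold change was 0.61 ± 0.11 (1.53-fold higher; adjusted p = 0.0010). The 4 calls remained under each alternative of scaling, filter, model and left-out library. As fitted here none of the 4 reached a log2 fold change of 1, which BCL2 passed under some of these alternatives (down to -1.06).

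BCL2A1, better known from blood cells as BFL1, was near the limit of detection. It had 58 reads in all 18 libraries together and 0 to 14 per library, and it was removed by the filter on low counts in every comparison. DMSO held 0, 1 and 1 reads, and the largest counts were 14 in N+PD24 replicate 1, 9 in PD24 replicate 1 and 8 in Nutlin replicate 1. Without the filter its adjusted p was 0.12 for Nutlin and 0.0818 for PD24 against DMSO, so no difference from DMSO was detectable in either at this depth. In CPM, PD24 did not overlap DMSO, but PD24 replicate 2 held 1 read, as DMSO replicates 2 and 3 did.

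The same 6 h of Nutlin were then compared in cells that had PD0332991 throughout (N+PD30 against PD30) or until Nutlin was added (N+PD24 against PD24). The rise of BCL2L1 was found with both schedules, the fall of BCL2 in PD30 cells, and the falls of BCL2L2 and MCL1 in PD24 cells. Of the 4 tested members, 1 was higher and 1 lower in N+PD30 against PD30, where 14.5% of all genes were called, 8.84% higher and 5.64% lower (29.0% with the replicate number as a block, with the same 2 members called; by total-count scaling 1107 higher and 1421 lower in place of 1333 and 850). In N+PD24 against PD24, 1 was higher and 2 were lower, where 36.7% of genes were called, 16.8% higher and 20.0% lower. With the replicate number as a block 8068 genes were called there in place of 5707. Total-count scaling gave 1801 higher and 4094 lower in place of 2603 and 3104. Of the 4, 2 did not overlap between N+PD30 and PD30 and 3 between N+PD24 and PD24, as was the case for 40.1% and 50.1% of all genes.

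BCL2L1 had 175, 186 and 190 CPM in PD30 and 247, 291 and 306 in N+PD30, the highest level of any group. All 3 N+PD30 libraries exceeded all PD30 libraries. The log2 fold change was 0.71 ± 0.10 (adjusted p = 0.00438). In PD24 it had 162, 170 and 137 CPM, and in N+PD24 210, 201 and 204, a narrow cluster above them (log2 fold change 0.54 ± 0.12, adjusted p = 0.0060). The rise differed from that without PD0332991 by 0.14 in PD30 (95% interval -0.18 to 0.47) and by -0.06 in PD24 (-0.40 to 0.29).

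BCL2L2 was the member whose response to Nutlin differed with PD0332991 by test. It had 54.9, 48.7 and 56.0 CPM in PD30 and 48.1, 51.2 and 54.2 in N+PD30, so the groups overlapped (log2 fold change 0.04, 95% interval -0.18 to 0.25). The interaction, that is the Nutlin response in PD30 minus that without PD0332991, was 0.78 ± 0.17 on the log2 scale (adjusted p = 0.0070, edgeR over 12 libraries). It was the only call among the 4 tested members, in a term for which 19.8% of all genes passed, 12.8% higher and 7.03% lower. Adjusted p remained at or under 0.0206 whichever library was left out. After removal of PD0332991 the fall was seen: PD24 had 46.6, 42.1 and 54.5 CPM and N+PD24 31.0, 23.4 and 31.9, with no overlap (log2 fold change -0.59 ± 0.16, adjusted p = 0.0149; 0.0612 without N+PD24 replicate 2). For that schedule the interaction was 0.13 (95% interval -0.35 to 0.61).

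For MCL1, PD30 held 277, 251 and 359 CPM and N+PD30 209, 228 and 346, where replicate 3 in each group stood apart from the other two. Replicate 3 was the highest for MCL1 in 6 of 6 groups, for BCL2L2 in 6 of 6, for BCL2 in 5 of 6 and for BCL2L1 in 3 of 6. The MCL1 log2 fold change in N+PD30 against PD30 was -0.09 (95% interval -0.53 to 0.35), and the interaction was 0.47 (-0.06 to 1.00; adjusted p = 0.199). MCL1 passed in this interaction with the replicate number as a block (adjusted p = 0.0413). In PD24 it had 336, 271 and 348 CPM and in N+PD24 235, 178 and 237, without overlap, and it fell by 0.42 ± 0.15 on the log2 scale (adjusted p = 0.0494). This call was lost with edgeR on recovered reads (adjusted p = 0.0503) and without PD24 replicate 1 (0.125) or 3 (0.131) or N+PD24 replicate 2 (0.188) or 3 (0.051).

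BCL2 had 20.8, 20.9 and 23.7 CPM in PD30 and 7.71, 11.6 and 10.7 in N+PD30, well separated (log2 fold change -1.02 ± 0.15, adjusted p = 0.00576). In PD24 it was already low, at 6.69, 6.87 and 10.7 CPM, and N+PD24 had 5.25, 6.90 and 7.11, overlapping it (log2 fold change -0.17, 95% interval -0.64 to 0.31). The interaction of Nutlin with PD24 was 0.77 ± 0.25 (unadjusted p = 0.00804) and did not pass the correction over all genes (limma, adjusted p = 0.20). No member passed for this term, for which 0.908% of all genes were called, 0.552% higher and 0.356% lower. At an unadjusted p under 0.05 BCL2 was the only one, and edgeR on recovered reads called no member either.

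**Figure D2:**
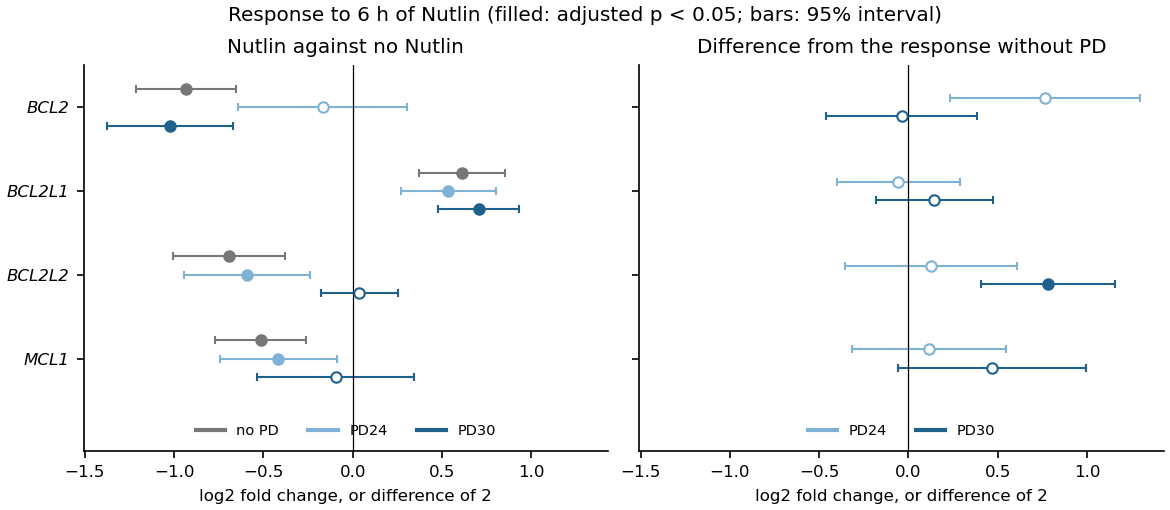
Left, log2 fold change of Nutlin against no Nutlin (horizontal axis) without PD, in PD24 and in PD30; right, the difference of each PD schedule from the response without PD. Bars are 95% intervals and filled points passed an adjusted p of 0.05. BCL2L1 lies right of 0 in all 3 settings, and BCL2L2 in PD30 is the only filled difference, at 0.78.

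Next, each PD0332991 schedule was compared with DMSO, without Nutlin. In PD24 against DMSO 1 of 4 tested members was lower and 0 higher, where 38.3% of all genes were called, 17.5% higher and 20.8% lower. In PD30 against DMSO 1 was higher and 0 lower, where 48.3% were called, 22.9% higher and 25.4% lower. In each of these comparisons 1 of the 4 did not overlap between the groups, against 50.1% of all genes for PD24 and 57.3% for PD30. The low member in PD24 was BCL2, whose 6.69 to 10.7 CPM lay below the 23.4 to 29.5 of DMSO (log2 fold change -1.68 ± 0.19, 3.21-fold lower, adjusted p = 0.000185). In PD30 the values of BCL2 overlapped those of DMSO (log2 fold change -0.29, 95% interval -0.55 to -0.04; adjusted p = 0.0575). This passed without DMSO replicate 1 (adjusted p = 0.0278) or PD30 replicate 3 (0.0416), and with the replicate number as a block (0.0284).

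The effect of the removal on BCL2 was compared directly. PD30 had 2.62 times the BCL2 of PD24 (log2 fold change 1.39 ± 0.19, adjusted p = 0.00116), with the lowest PD30 library at 20.8 CPM and the highest PD24 library at 10.7. It was the only call among the 4 tested members in this comparison, in which 25.2% of all genes were called, 12.2% higher and 12.9% lower, or 40.3% with the replicate number as a block, again with BCL2 alone. BCL2L1, BCL2L2 and MCL1 had log2 fold changes of 0.19 (95% interval -0.06 to 0.45), 0.12 (-0.14 to 0.38) and -0.14 (-0.46 to 0.18). BCL2 and BCL2L1 did not overlap between the groups, which was so for 42.1% of all genes.

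The other PD0332991 call was BCL2L1, with 175 to 190 CPM in PD30 above the 148 to 157 of DMSO (log2 fold change 0.24 ± 0.07, adjusted p = 0.0214). It did not hold with all 18 libraries in 1 fit (adjusted p = 0.139), or without DMSO replicate 1 (0.0649), 2 (0.0581) or 3 (0.055) or PD30 replicate 2 (0.0599). MCL1 in PD30 against DMSO had a log2 fold change of -0.23 (95% interval -0.52 to 0.05), which reached -0.39 without PD30 replicate 3 (adjusted p = 0.00938). It passed with the replicate number as a block (adjusted p = 0.0254). In PD24 against DMSO, BCL2L1, BCL2L2 and MCL1 had log2 fold changes of 0.05 (95% interval -0.20 to 0.30), 0.06 (-0.20 to 0.31) and -0.09 (-0.34 to 0.15).

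Cells that received both drugs were compared with cells that received Nutlin alone. With PD0332991 kept, BCL2L2 was higher and no other member passed, 1 of 4 tested, where 49.0% of all genes were called, 24.3% higher and 24.7% lower. BCL2L2 had 48.1 to 54.2 CPM in N+PD30 and 20.6 to 32.1 in Nutlin (log2 fold change 0.92 ± 0.15, 1.89-fold higher, adjusted p = 0.000592), within the combined range of DMSO and PD30. BCL2L1 was at 247, 291 and 306 CPM in N+PD30, and the lowest of these fell under the highest Nutlin library at 254 (log2 fold change 0.34 ± 0.14, adjusted p = 0.0546). It passed without Nutlin replicate 3 (adjusted p = 0.0314) or N+PD30 replicate 1 (0.0263), with total-count scaling (0.0473) and with all 18 libraries in 1 fit (0.0101). With the replicate number as a block it passed too. BCL2 was lower without overlap, but its test did not pass (log2 fold change -0.38 ± 0.17, adjusted p = 0.0918), and MCL1 had a log2 fold change of 0.20 (95% interval -0.19 to 0.59). Thus 2 of the 4 did not overlap, as for 57.5% of all genes.

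With PD0332991 removed before Nutlin, BCL2 was the 1 of 4 tested members called, and it was lower, where 34.1% of all genes were called, 17.0% higher and 17.1% lower (52.7% with the replicate number as a block, with BCL2 alone again). N+PD24 had 5.25, 6.90 and 7.11 CPM, all below the 11.6 to 13.6 of Nutlin (log2 fold change -0.91 ± 0.15, adjusted p = 0.00151). BCL2L1, BCL2L2 and MCL1 overlapped between the groups, with log2 fold changes of 0.01 (95% interval -0.27 to 0.29), 0.20 (-0.19 to 0.60) and 0.04 (-0.28 to 0.37). BCL2 alone did not overlap, as for 47.5% of all genes. The sign of BCL2L1 and of MCL1 turned with total-count scaling.

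Between the combinations, N+PD30 had more BCL2L2 and BCL2L1 than N+PD24, 2 of 4 tested members, both higher, where 31.5% of all genes were called, 15.5% higher and 16.0% lower (by total-count scaling 3095 higher and 1929 lower in place of 2409 and 2493). BCL2L2 differed by 0.73 ± 0.14 on the log2 scale (adjusted p = 0.00497), with 48.1 to 54.2 against 23.4 to 31.9 CPM. BCL2L1 differed by 0.34 ± 0.11 (adjusted p = 0.0454), a call lost without the filter on low counts (0.0524) and without N+PD24 replicate 2 (0.154) or 3 (0.114) or N+PD30 replicate 2 (0.176) or 3 (0.127). BCL2 did not overlap between these groups and had a log2 fold change of 0.51 ± 0.20 (adjusted p = 0.0732). BCL2 passed without N+PD30 replicate 1 (0.0238), the library of lowest depth, and with the replicate number as a block. Its adjusted p was as low as 0.0216 among the other alternatives of scaling, filter and model. MCL1 had a log2 fold change of 0.13 (95% interval -0.29 to 0.55). Of the 4, 3 did not overlap between the groups, as for 47.9% of all genes.

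**Figure D3:**
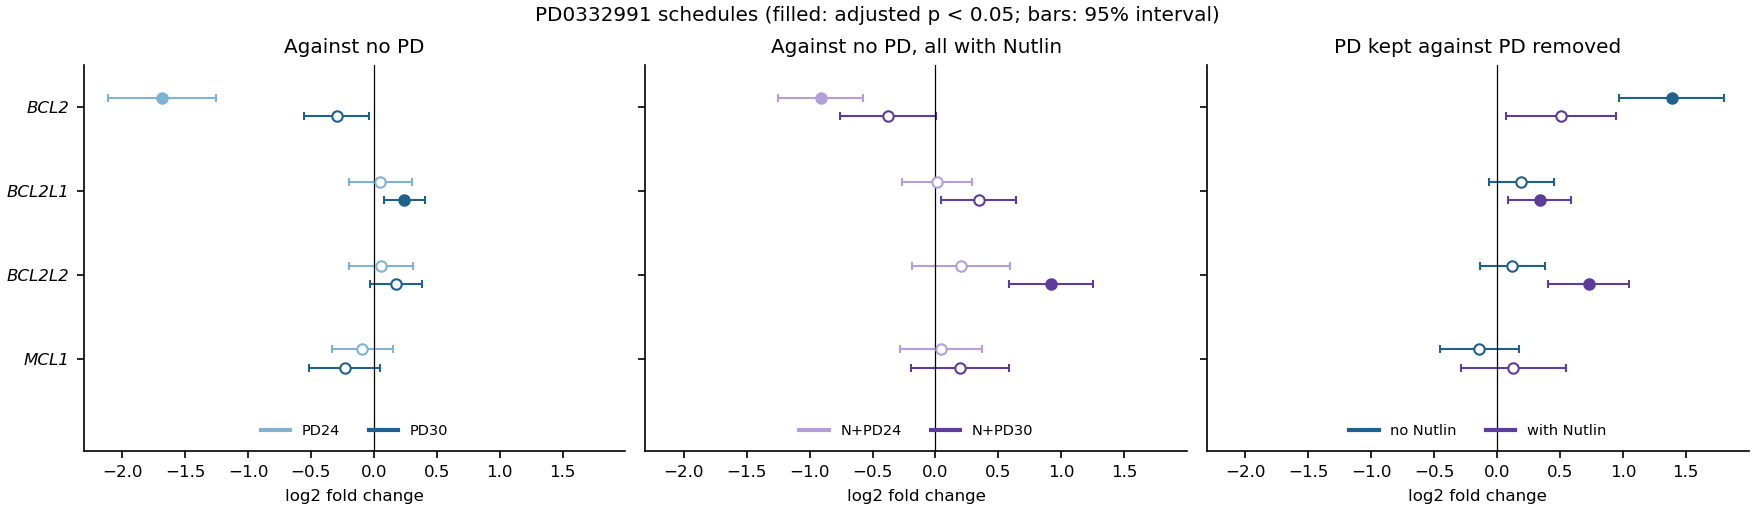
Log2 fold changes (horizontal axes) of the PD schedules against no PD without Nutlin (left) and with Nutlin (centre), and of PD kept against PD removed (right); bars are 95% intervals and filled points passed an adjusted p of 0.05. BCL2 is the only gene past the test with PD24 (-1.68), and BCL2L2 is the only one past it in N+PD30 against Nutlin (0.92).

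The order of the 6 groups, by mean CPM, showed which levels were close. For BCL2 it ran DMSO, PD30, Nutlin, N+PD30, PD24, N+PD24, and neighbours overlapped except PD30 with Nutlin and Nutlin with N+PD30. For BCL2L1 it ran N+PD30, Nutlin, N+PD24, PD30, PD24, DMSO, with gaps only between N+PD24 and PD30 and between PD30 and PD24. BCL2L2 formed a high set of PD30, N+PD30, PD24 and DMSO that overlapped in sequence, and a low pair of N+PD24 and Nutlin. For MCL1, from DMSO through PD24, PD30, N+PD30 and Nutlin to N+PD24, every neighbouring pair overlapped.

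The genes most like each member over the 18 libraries, by Pearson's r of log2(CPM + 0.1) among 13559 genes with a mean of at least 1 CPM, are given as a description, since the libraries share groups and depth. For BCL2 they were ZNF638 (r = 0.954), C2orf56 (0.953) and HS2ST1 (0.951). ZNF638 fell from 157 CPM in DMSO to 93.0 in PD24 and stood at 144 in PD30. For BCL2L1 they were SLC12A4 (0.941), EPHA2 (0.940) and C22orf23 (0.923), with EPHA2 at 122 CPM in DMSO and 332 in N+PD30. For BCL2L2 they were KIAA0317 (0.968), NSUN4 (0.966) and C22orf29 (0.964), with NSUN4 at 30.3 CPM in DMSO, 10.0 in Nutlin and 35.0 in N+PD30. For MCL1 they were PWWP2A (0.956), a row whose symbol a spreadsheet had turned into a date (0.932), and FOXN2 (0.930). Between members r was 0.74 for BCL2L2 with MCL1, 0.49 for BCL2 with MCL1 and -0.44 for BCL2L1 with MCL1.

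The partners of these genes were described from 5 lists of 25 genes in all, the pore-forming effectors, BH3-only genes, further BCL2-like genes, the steps downstream of the mitochondrion, and enzymes of MCL1 turnover. In Nutlin against DMSO 5 of the 22 tested were higher and 4 lower, and 13 did not pass, where 54.6% of all genes were called (26.6% higher and 28.0% lower). The partners had a median of 0.04 in log2 fold change, beside 0.03 over all genes. Of the 3 effectors, BAX rose from 79.7 ± 2.45 to 210 ± 19.3 CPM (log2 fold change 1.52), and BAK1 and BOK did not pass. Of 7 BH3-only genes tested, BBC3 rose from 2.76 ± 1.30 to 17.3 ± 6.07 CPM (2.76 on the log2 scale), while PMAIP1 and BCL2L11, which encodes BIM, fell by 0.83 and 1.04 log2 units. Downstream, APAF1, the scaffold of the apoptosome, rose by 0.44 log2 units, and XIAP, an inhibitor of caspases, fell by 0.52. Of the 4 turnover genes, FBXW7, part of a ubiquitin ligase for MCL1, rose by 1.05 and BTRC fell by 0.46 log2 units.

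With PD0332991 the pattern of the partners was as follows. In N+PD30 against PD30, 6 of the 22 tested were higher and 0 lower: BAX, BAK1, BBC3, BAD, APAF1 and FBXW7, with 14.5% of all genes called (8.84% higher and 5.64% lower). In N+PD24 against PD24, 6 of 23 were higher and 0 lower, with 36.7% of all genes called (16.8% higher and 20.0% lower). The BH3-only gene PMAIP1 had 56.5 CPM in DMSO, 29.2 in Nutlin and 66.2 ± 28.9 in N+PD30, and rose by 1.14 log2 units in N+PD30 against Nutlin, as BAK1 did by 0.79. In that comparison 8 of 22 were higher and 4 lower, with 49.0% of all genes called (median log2 fold change 0.21, beside 0.00 over all genes). BCL2L11 and BMF, an activator of BAX and a BH3-only gene linked to loss of adhesion, fell by 1.36 and 2.26 log2 units there.

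Under PD0332991 alone 5 of 23 partners were higher and 5 lower in PD30, and 2 were higher and 5 lower in PD24, beside 48.3% and 38.3% of all genes called. BCL2L11 went from 7.20 ± 1.33 CPM in DMSO to 1.24 ± 0.10 in PD30, and HRK from 0.196 to 2.58 ± 0.42. APAF1 was lower with both schedules, falling by 1.35 log2 units in PD30 and by 1.26 in PD24. BCL2L12 was lower with both as well, falling by 1.66 and 1.34. In the interaction of Nutlin with PD30, 4 of 24 partners passed, all higher (APAF1, BAK1, PMAIP1 and BCL2L11), beside 19.8% of all genes, and 0 of 24 passed in that with PD24, beside 0.908%.

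**Figure D4:**
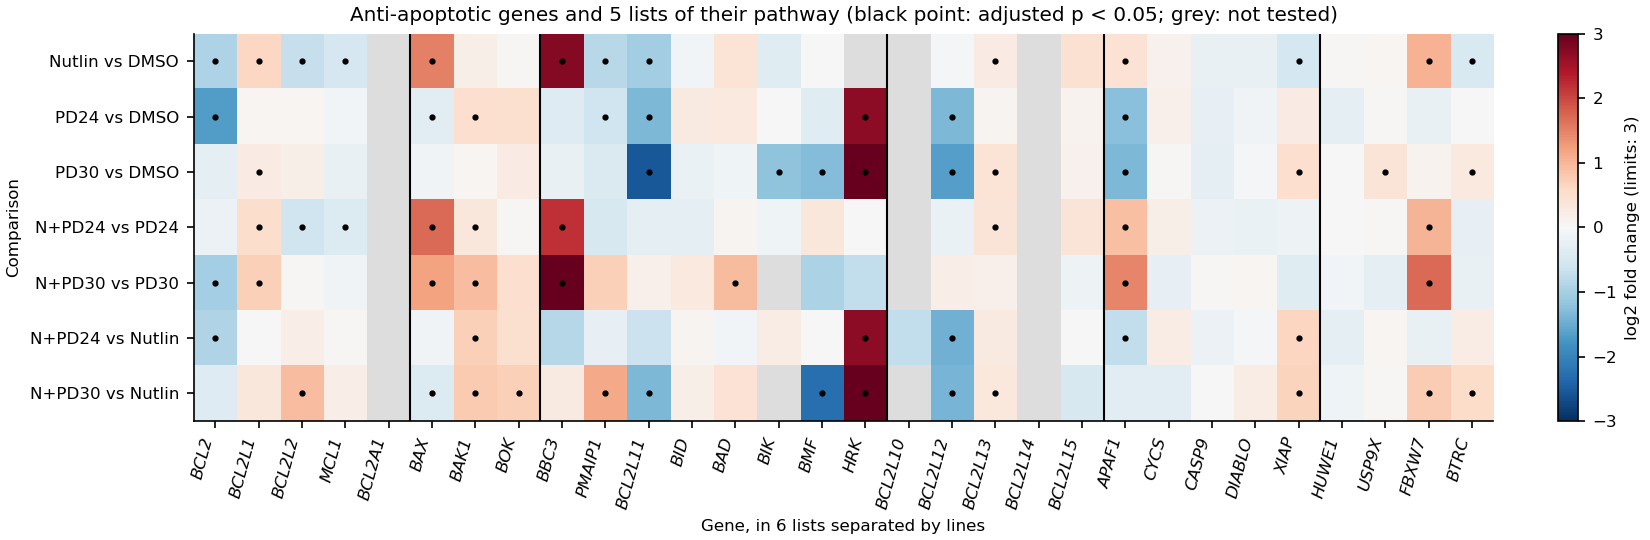
Log2 fold change (colour, from -3 in blue to 3 in red) of the 5 members and 25 partners (columns, in 6 lists separated by lines) in 7 comparisons (rows). Black points passed an adjusted p of 0.05 and grey cells were not tested. BAX and BBC3 are red in all 3 rows of Nutlin against no Nutlin, and HRK is red in all 4 rows of PD0332991 against none.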

How the data were processed

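RNA of 18 SJSA libraries was analysed. The authors mapped reads to hg19 with TopHat and Bowtie2 and counted them per gene with HTSeq 0.6.0. They deposited counts for 5 groups. For N+PD24 the deposited values were a signal, in which the counts of a library had been scaled by a single size factor. Of these values 100% were whole multiples of a step (tolerance 0.01 reads). All tables name their columns by group and number. The deposited DESeq2 comparison and base means were not used.

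CPM used each library's own total. Comparisons of count groups used edgeR 4.0.16 (quasi-likelihood, TMM, filterByExpr, R 4.3.3) and those with N+PD24 limma 3.58.1 (trend, TMM) on log2(CPM + 0.1), which understates changes of low genes, over all genes with Benjamini-Hochberg adjustment at 0.05. DESeq2 1.42.0 was an alternative. Scripts were tested on simulated data. Members, lists and tests were chosen with earlier results of these data known. Named genes are the members, the listed partners, drug checks and cell type markers, and the 3 most alike genes per member. Some listed genes are not reported here. The shared numbers paired the samples, by correlated deviations over 0.1 in every pair, in N+PD24 against Nutlin, N+PD24 against PD24, N+PD30 against PD30 and PD30 against PD24 (lowest r 0.171). In N+PD30 against PD30 the best match carried the same number in only 2 of 3 pairs, so the pairing there was partial. It did so in 3 of 3 pairs in each of the others.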

Additional observations from a re-analysis of the deposited data

Results flagged for a closer look

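The genes here stood out because the response to Nutlin differed with PD0332991 kept for 30 h, by the interaction over 12 libraries (edgeR, adjusted p). For BCL2L2 the difference was 0.78 on the log2 scale (adjusted p = 0.0070). Its 3 Nutlin libraries lay below all DMSO libraries, while N+PD30 overlapped PD30. Among the partners the differences were 1.60 for PMAIP1, 1.23 for BCL2L11, 1.07 for APAF1 and 0.78 for BAK1. For BCL2L11 both groups with PD0332991 were low, at 1.24 and 1.27 CPM. The depth of N+PD30 replicate 1 was the lowest of all libraries, and without it the BCL2L2 term remained called.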

How the results depend on the processing

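Of the 17 member values past the adjusted p of 0.05, none changed sign under any alternative tried, and 13 kept their call in each but the fold threshold. Of the 44 member values tested, 13 that had not passed changed sign somewhere. When a log2 fold change over 1 was required as well, 0 members were called in Nutlin, PD30 against DMSO, N+PD30 or N+PD24 against Nutlin, N+PD24 against PD24, N+PD30 against N+PD24 and the PD30 interaction, and 1 in N+PD30 against PD30. With all 18 libraries in 1 fit 0 members were called in PD30 against DMSO and 2 in N+PD30 against Nutlin. With total-count scaling 2 were called in N+PD30 against Nutlin, and without the filter 1 in N+PD30 against N+PD24. The replicate block called 3 members in PD30 against DMSO (MCL1 at adjusted p = 0.0254 and BCL2 at 0.0284 besides BCL2L1). It called 2 in N+PD30 against Nutlin (BCL2L1, 0.0383) and 2 in the PD30 interaction (MCL1, 0.0413). It also called BCL2 in N+PD30 against N+PD24 (0.0352). It changed no other member's call. In these comparisons the numbers paired the samples only in part. The lowest correlation of same-numbered samples was -0.0962 in PD30 against DMSO, -0.0539 in N+PD30 against Nutlin and -0.192 in the PD30 interaction. It was 0.0491 in N+PD30 against N+PD24. The best match carried the same number in 14 of 18 pairs in the interaction and in 2 of 3 in each other comparison. The cause of these changes of call was not tested.

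Leaving out each library in turn, the members called ranged from 0 to 3 in PD30 against DMSO, 1 to 2 in N+PD30 against Nutlin, 1 to 3 in N+PD24 against PD24 and 1 to 3 in N+PD30 against N+PD24. The log2 fold changes whose sign turned ranged in PD24 against DMSO from -0.034 to 0.149 for BCL2L1 and from -0.031 to 0.122 for BCL2L2. In N+PD24 against Nutlin they ranged from -0.10 to 0.11 for BCL2L1 (-0.063 with total-count scaling and -0.033 without the filter) and from -0.091 to 0.161 for MCL1 (-0.029 with total-count scaling). In N+PD30 against PD30 they ranged from -0.014 to 0.094 for BCL2L2 (-0.056 with total-count scaling) and from -0.316 to 0.087 for MCL1. For MCL1 they ranged from -0.028 to 0.318 in N+PD30 against Nutlin and from -0.075 to 0.263 in N+PD30 against N+PD24, and for BCL2 from -0.299 to 0.040 in N+PD24 against PD24. In the interactions they ranged from -0.172 to 0.079 for BCL2 with PD30, and with PD24 from -0.153 to 0.043 for BCL2L1, -0.029 to 0.276 for BCL2L2 and -0.0053 to 0.259 for MCL1.

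Total-count scaling moved the median log2 fold change of all genes by -0.13 in Nutlin against DMSO, -0.14 in N+PD24 against PD24 and 0.11 in N+PD30 against N+PD24. In N+PD30 against PD30 the 2183 genes called became 4375 with the block, 583 without PD30 replicate 1, 1150 without replicate 2, 1064 without replicate 3, 625 without N+PD30 replicate 2 and 3384 without N+PD30 replicate 3. In PD30 against PD24 the 3816 became 6107 with the block, 2178 without PD30 replicate 1 and 2520 without PD30 replicate 3. The 5425 of N+PD24 against Nutlin became 8391 with the block. The 5707 of N+PD24 against PD24 became 8068 with the block and 3799 without N+PD24 replicate 2. The 4902 of N+PD30 against N+PD24 became 3181 without that library. In the PD24 interaction the 148 became 325 with the block, 286 with a pseudocount of 1 CPM and 44 to 125 without single libraries. The depth allowed no comparison of BCL2A1, with at most 14 reads per library.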
